A study of Homo sapiens with 16 samples.

Results

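The genes described here are MMP1, MMP14 and MMP15, which encode matrix metalloproteinases, and TIMP1, TIMP2 and TIMP3, which encode tissue inhibitors of metalloproteinases. They are 6 of the 14857 genes in the table and were picked by name. Their difference between clones with tristetraprolin (TTP) and clones with an empty vector (EV), and the level of MMP1 in single libraries, were known when they were picked, so these values are given as a description with no test. All 6 genes had a row in the table, which lists no gene with a mean under 9.68 normalized counts.

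RNA was sequenced from 16 cultures of MDA-MB-231, a human triple-negative breast cancer line, all with tet-off control, under which a transgene is shut down while doxycycline is present. Clones TTP_E11 and TTP_H3 carried TTP, the product of ZFP36, and clones EV_A and EV_B carried the empty vector, with 4 biological replicates of each clone. Per the labels, cells were kept in G418 and hygromycin, cells with TTP were also kept in doxycycline at 2 µg/mL, and drugs were washed out for at least 24 h before an experiment. Each group is 1 stably transfected clone and each arm holds 2 clones, so TTP, clone and doxycycline history cannot be told apart, and the p-values below speak of replicate cultures, not of further clones.

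Matrix metalloproteinases are zinc-dependent proteases that are made as inactive proenzymes and become active when a propeptide is cut off. MMP1, the interstitial collagenase, is secreted and cuts the triple helix of fibrillar collagens, which few proteases can do. MMP14 and MMP15 are anchored in the cell membrane. MMP14 degrades pericellular collagen and activates proMMP2 on the cell surface in a complex with TIMP2, and its own propeptide is removed inside the cell by furin. TIMPs bind active metalloproteinases and block them. TIMP1 inhibits the membrane-anchored enzymes poorly, TIMP2 inhibits them well, and TIMP3 is held in the extracellular matrix and also blocks proteases of the ADAM and ADAMTS families. TTP binds AU-rich elements in the 3′ untranslated region (UTR) of messenger RNAs and recruits deadenylases, and MMP1 mRNA is among the transcripts described as TTP targets in breast cancer cells.

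Libraries held between 14380767 and 22066098 reads on the listed genes. ZFP36 was between 10160.1 and 15041 normalized counts in the 8 libraries named TTP, against 213.5 to 282.2 in the 8 libraries named EV. The titles of 7 libraries named TTP say EV, and the level of ZFP36 goes with the library names. Of 10 fixed markers of basal-like or mesenchymal breast lines all 10 were listed, with a summed level of 105692 to 110879 normalized counts in TTP libraries and 136269 to 141236 in EV libraries. For luminal breast 7 of 12 markers were listed (ESR1, PGR, FOXA1, CDH1 and TFF3 were not), at 28375 to 30851 in TTP and 27315 to 36117 in EV libraries. For immune cells 3 of 6 were listed (PTPRC, CD3E and MS4A1 were not), at 58.9 to 100.2 in TTP and 79.0 to 181.1 in EV libraries. For endothelium 2 of 5 were listed (PECAM1, VWF and CDH5 were not), at 352.8 to 445.9 in TTP and 180.5 to 216.0 in EV libraries, and for fibroblasts 5 of 8 (DCN, PDGFRA and FAP were not), at 421.0 to 731.8 in TTP and 372.9 to 750.9 in EV libraries. In bulk RNA, fewer cells with a transcript and less of it per cell cannot be told apart.

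Single libraries stood apart within their clone. Replicate 3 of TTP_H3 lay beyond Dixon's 95% limit among the 4 libraries of its clone at 4.04% of 11878 genes with a mean of at least 50, and replicate 4 of EV_B at 3.78%, against 0.631% to 1.91% in the other 14 libraries. Both touch the genes described here, whose differences between the arms are given with and without them.

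MMP1 (chromosome 11, 102789920 to 102798160, minus strand, GRCh38) was abundant in both TTP clones and scarce in both EV clones. In TTP_E11 the 4 libraries held 5301, 5746, 5353 and 5398 normalized counts, and in TTP_H3 6076, 5928, 11555 and 5976. In EV_A they held 37.4, 53.8, 35.5 and 42.6, and in EV_B 160.7, 148.2, 184.6 and 311.2. Every TTP library lay above every EV library, and no EV_A library reached the lowest EV_B library. The TTP clones differed by less than the spread within TTP_H3, which rests on its replicate 3. Every TTP_H3 library still lay above every TTP_E11 library. The clone means were 5450 ± 202 in TTP_E11, 7384 ± 2782 in TTP_H3, 42.3 ± 8.24 in EV_A and 201.2 ± 74.9 in EV_B (SD, n = 4 each). The ratio of clone means was 128.7 for TTP_E11 over EV_A, 27.1 for TTP_E11 over EV_B, 174.4 for TTP_H3 over EV_A and 36.7 for TTP_H3 over EV_B. EV_B over EV_A, which share no TTP plasmid, had a ratio of 4.75. On the scale of log2(normalized count + 1) the difference of TTP from EV was 6.09 ± 0.179 (SE), and 7.18 with EV_A alone or 5.004 with EV_B alone as control. The size of the MMP1 difference therefore depended on which empty-vector clone it was read against. The reads behind these means were 21933 in TTP_E11 and 29399 in TTP_H3, against 178 in EV_A and 811 in EV_B. In the authors' deposited table the log2 fold change of MMP1 was 5.72, and edgeR on the summed reads of each clone gave 5.71. The 6.09 is an average over logs of single libraries, which is a different measure.

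**Figure D1:**
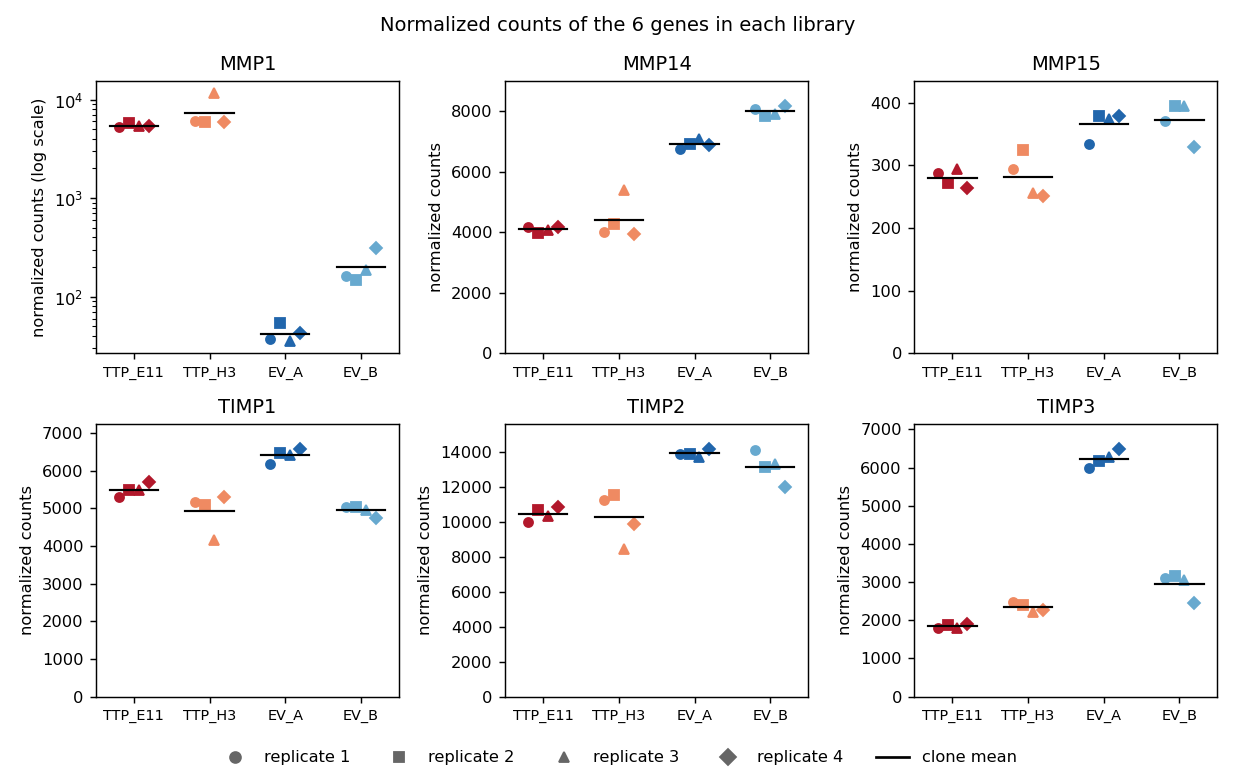
Normalized counts (y axis, a log scale for MMP1 and a linear scale from 0 for the others) of the 6 genes in each library, by clone (x axis), with the marker shape giving the replicate and the bar the clone mean. MMP1 stood between 5301 and 11555 in TTP libraries and between 35.5 and 311.2 in EV libraries, MMP14, MMP15 and TIMP2 were lower in every TTP library than in any EV library, and for TIMP1 and TIMP3 the arms overlapped.

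The 3′ UTR of MMP1 is short, with 492 bases in the GENCODE 29 transcript, and holds the pentamer ATTTA at 3 places. The stretches around them are shown, on the transcript's strand, because the pentamer is the core of the elements TTP binds. Capitals mark the pentamer.
MMP1, chr11:102790275-102790299: atataatcttATTTAtacctcagtt
MMP1, chr11:102790244-102790268: tttttttactATTTAgaatgtagcc
MMP1, chr11:102790212-102790236: tactgatataATTTAgttccacaaa
The first stretch extends the pentamer to the heptamer TATTTAT, which contains it. The nonamer TTATTTATT, which contains both, was not found in this UTR. Of 12560 3′ UTRs of listed genes, 72.9% held ATTTA, 35.2% held TATTTAT and 9.33% held TTATTTATT on the transcript's strand. Of the 1424 UTRs within 25% of the length of that of MMP1, 47.9% held ATTTA and 13.8% held TATTTAT. Matches are given as letters in a window, and binding was not measured.

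MMP14 (chromosome 14, 22836557 to 22849027, plus strand) ran the other way. The libraries of TTP_E11 held 4166, 3974, 4077 and 4177 normalized counts and those of TTP_H3 held 3997, 4273, 5388 and 3939. EV_A held 6743, 6897, 7060.3 and 6887, and EV_B held 8055, 7826, 7895 and 8168. Every TTP library lay below every EV library, and replicate 3 of TTP_H3 was the highest of the TTP libraries. TTP_H3 and TTP_E11 did not differ at the threshold (log2 difference 0.09, 95% interval -0.05 to 0.23, limma adjusted p = 0.485), and without replicate 3 of TTP_H3 the difference was -0.01. EV_B was above EV_A by 0.21 on the log2 scale, at 7986 ± 154 against 6897 ± 130 (limma adjusted p = 0.0345). That call was not kept when any of the 8 EV libraries was left out (adjusted p = 0.0503 to 0.0892), while without replicate 3 of TTP_H3, which widens the shared spread of this gene, the adjusted p was 1.28e-07. The clone means of 4098 ± 94.6 in TTP_E11 and 4399 ± 675 in TTP_H3 gave a log2 difference of TTP from EV of -0.81 ± 0.0513 (SE).

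MMP15 (chromosome 16, 58025566 to 58046901, plus strand), a membrane-anchored relative of MMP14, was far less abundant. The values in TTP_E11 were 288.4, 271.7, 294.9 and 263.6 normalized counts and those in TTP_H3 were 293.7, 324.2, 256.4 and 251.9. The values in EV_A were 334.1, 378.7, 374.1 and 379.0 and those in EV_B were 370.8, 395.0, 393.9 and 329.1. The arms did not overlap, but the highest TTP library and the lowest EV library were close, at 324.2 in TTP_H3 and 329.1 in EV_B. The clone means were 279.6 ± 14.5 in TTP_E11, 281.5 ± 34.1 in TTP_H3, 366.5 ± 21.7 in EV_A and 372.2 ± 30.8 in EV_B (SD, n = 4 each), a log2 difference of TTP from EV of -0.40 ± 0.0569 (SE). Clones of the same arm did not differ at the threshold. The log2 difference was 0.00 for TTP_H3 from TTP_E11 (95% interval -0.15 to 0.16, limma adjusted p = 0.987) and 0.02 for EV_B from EV_A (95% interval -0.14 to 0.18, limma adjusted p = 0.870).

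Their 3′ UTRs differ in the same pentamer. In MMP14 none was found in 1722 bases. In MMP15 there were 2 in 1455 bases, of which 1 lies in a heptamer and is shown with the capitals as before.
MMP15, chr16:58045566-58045590: cgccctcattATTTAtgtccaggtg
Of UTRs within 25% of these lengths, 86.4% for MMP14 and 82.2% for MMP15 held the pentamer. The heptamer was held by 36.8% for MMP14 and 32.4% for MMP15.

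Among the inhibitors, TIMP3 (chromosome 22, 32801701 to 32863043, plus strand) had the widest range over clones. TTP_E11 held 1808, 1882, 1796 and 1899 normalized counts and TTP_H3 held 2473, 2411, 2217 and 2261. EV_A held 5984, 6165, 6276 and 6486, and EV_B held 3118, 3156, 3059 and 2459.9. The order TTP_E11, TTP_H3, EV_B, EV_A held between clone means of 1846 ± 51.7, 2340.5 ± 121, 2948 ± 328 and 6228 ± 210.4 (SD, n = 4 each), and the lowest EV_B library lay just under the highest TTP_H3 library. Each step within an arm passed the test. TTP_H3 was above TTP_E11 by 0.34 on the log2 scale (95% interval 0.22 to 0.46, limma adjusted p = 0.00109). EV_B was below EV_A by a log2 difference of -1.09 (95% interval -1.21 to -0.97, limma adjusted p = 2.08e-10). The difference of TTP from EV was -1.04 ± 0.0432 (SE) in log2, a description that averages -1.58 against EV_A and -0.50 against EV_B. The step between the EV clones was as large as the difference between the arms.

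TIMP1 (chromosome X, 47582313 to 47586789, plus strand) set EV_A apart from the other 3 clones. It stood at 5295, 5478, 5486 and 5692 normalized counts in TTP_E11 and at 5179, 5101, 4172 and 5306 in TTP_H3. It stood at 6191, 6467, 6430 and 6580.4 in EV_A and at 5038, 5039, 4953 and 4756 in EV_B. Clone means were 5488 ± 162 in TTP_E11, 4939 ± 519 in TTP_H3, 6417 ± 164 in EV_A and 4946 ± 133 in EV_B (SD, n = 4 each). The log2 difference of TTP from EV was -0.12 ± 0.0377 (SE), with -0.30 against EV_A and 0.07 against EV_B, so that its sign changed with the control clone. In the authors' deposited table it was -0.12 with an adjusted p of 0.158. EV_B was below EV_A (log2 difference -0.38, 95% interval -0.48 to -0.27, limma adjusted p = 1.57e-05). TTP_H3 and TTP_E11 did not differ at the threshold in limma (log2 difference -0.16, 95% interval -0.26 to -0.05, adjusted p = 0.0621), and the call turned on single libraries of TTP_H3. Without its replicate 3 the difference was -0.08 (limma adjusted p = 0.0913), while it passed without replicate 1 (-0.18, adjusted p = 0.0459) and without replicate 4 (-0.19, adjusted p = 0.0213).

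TIMP2 (chromosome 17, 78852977 to 78925387, minus strand) had the highest clone means in normalized counts of the 6 genes in every clone, a unit that is not corrected for gene length. Its libraries held 10028, 10683, 10320.4 and 10841 in TTP_E11 and 11278, 11529.7, 8435 and 9878 in TTP_H3. They held 13906, 13901, 13749.9 and 14182 in EV_A and 14124.5, 13170.2, 13306 and 12012 in EV_B. The arms did not overlap, and the clones of each arm did. The clone means were 10468 ± 365 in TTP_E11, 10280.3 ± 1429 in TTP_H3, 13935 ± 180.2 in EV_A and 13153 ± 869.9 in EV_B (SD, n = 4 each), a log2 difference of TTP from EV of -0.39 ± 0.0578 (SE). The log2 difference was -0.04 for TTP_H3 from TTP_E11 (95% interval -0.20 to 0.12, limma adjusted p = 0.838) and -0.09 for EV_B from EV_A (95% interval -0.25 to 0.07, limma adjusted p = 0.457). TIMP2 shares 367 exon bases with an antisense gene and 198 with CEP295NL on its own strand, and whether strand was counted is not stated. MMP1 shares 150 exon bases with the antisense pseudogene WTAPP1, while TIMP1 and TIMP3 lie inside SYN1 and SYN3 with no shared exon base.

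The inhibitors also differ in AU-rich pentamers. TIMP1 had none in a 3′ UTR of 609 bases, TIMP2 had 4 in 2690 bases with no heptamer, and TIMP3 had 7 in 3666 bases. The 2 pentamers of TIMP3 that lie in heptamers are shown because no other gene of the 6 has more than 1.
TIMP3, chr22:32861090-32861114: gcttatgggtATTTAtcttctatta
TIMP3, chr22:32862919-32862943: cctccatgttATTTAtgaattttat
Among UTRs within 25% of each length, 97.3% held the pentamer for TIMP3, 94.1% for TIMP2 and 56.6% for TIMP1. The heptamer was held by 60.9% for TIMP3, 50.1% for TIMP2 and 18.0% for TIMP1. Of the 6 genes, MMP1, MMP15 and TIMP3 held a heptamer, and their log2 differences of TTP from EV were 6.09, -0.40 and -1.04.

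Read together, 4 of the 6 genes (MMP1, MMP14, MMP15 and TIMP2) had no overlap between the 8 TTP and the 8 EV libraries. Of all genes, 31.8% had none, and 38.5% passed with 1 sign whichever TTP clone was set against whichever EV clone. The averaged contrast of TTP with EV called 70% of all genes, 35.4% higher and 34.6% lower. Nothing is read from the members' own counts here, since these contrasts chose them. Between TTP_H3 and TTP_E11, 1 of the 5 genes tested passed (TIMP3), where 11.7% of all genes did. Between EV_B and EV_A, 3 of the 5 passed (MMP14, TIMP1 and TIMP3), where 36.8% of all genes did.

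**Figure D2:**
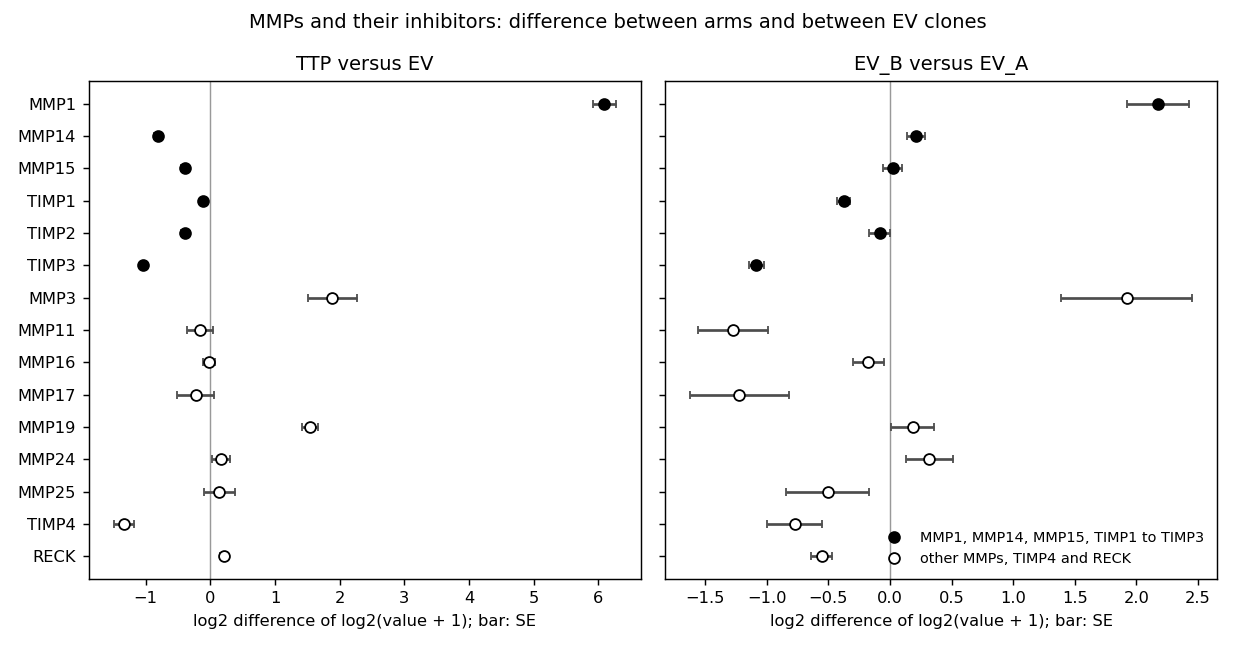
Differences of log2(normalized count + 1) (x axis, bars ± SE) for TTP versus EV on the left and EV_B versus EV_A on the right, for the 6 genes (filled) and for the other measured MMPs, TIMP4 and RECK (open). MMP1 stood at 6.09 and 2.18, and TIMP3 at -1.04 and -1.09.

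To compare levels between genes, reads were scaled per kilobase of exon and by the reads on listed genes of the library (RPKM of listed reads). On this scale MMP1 was at 152 in TTP_E11 and 206 in TTP_H3, against 1.13 in EV_A and 5.26 in EV_B. MMP14 was at 50.5 in TTP_E11 and 54.2 in TTP_H3, against 81.4 in EV_A and 92.1 in EV_B. MMP1 made up 72.5 ± 1.04% of the summed level of the 10 measured MMPs in TTP_E11 and 76.2 ± 3.69% in TTP_H3, against 1.26 ± 0.240% in EV_A and 5.01 ± 1.70% in EV_B (SD, n = 4 each). MMP14 made up 24.1% in TTP_E11 and 20.9% in TTP_H3, against 90.9% in EV_A and 88.4% in EV_B. The leading MMP transcript was thus MMP1 in every TTP library and MMP14 in every EV library. The summed level of the MMPs was 210.0 in TTP_E11 and 267.9 in TTP_H3, against 89.5 in EV_A and 104.1 in EV_B. Without MMP1 it was 57.7 in TTP_E11 and 61.6 in TTP_H3, against 88.3 in EV_A and 98.9 in EV_B.

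Among the 4 TIMPs the summed level was 321.2 in TTP_E11 and 305.4 in TTP_H3, against 423.1 in EV_A and 319.7 in EV_B, so that EV_B lay with the TTP clones. TIMP1 was the leading TIMP per length in all clones, at 196.0 in TTP_E11 and 176 in TTP_H3, against 219 in EV_A and 165 in EV_B. TIMP2 followed at 102 in TTP_E11 and 100.4 in TTP_H3, against 130.3 in EV_A and 120.2 in EV_B. TIMP3 took 6.87% of the TIMP level in TTP_E11 and 9.21% in TTP_H3, against 16.8% in EV_A and 10.3% in EV_B.

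**Figure D3:**
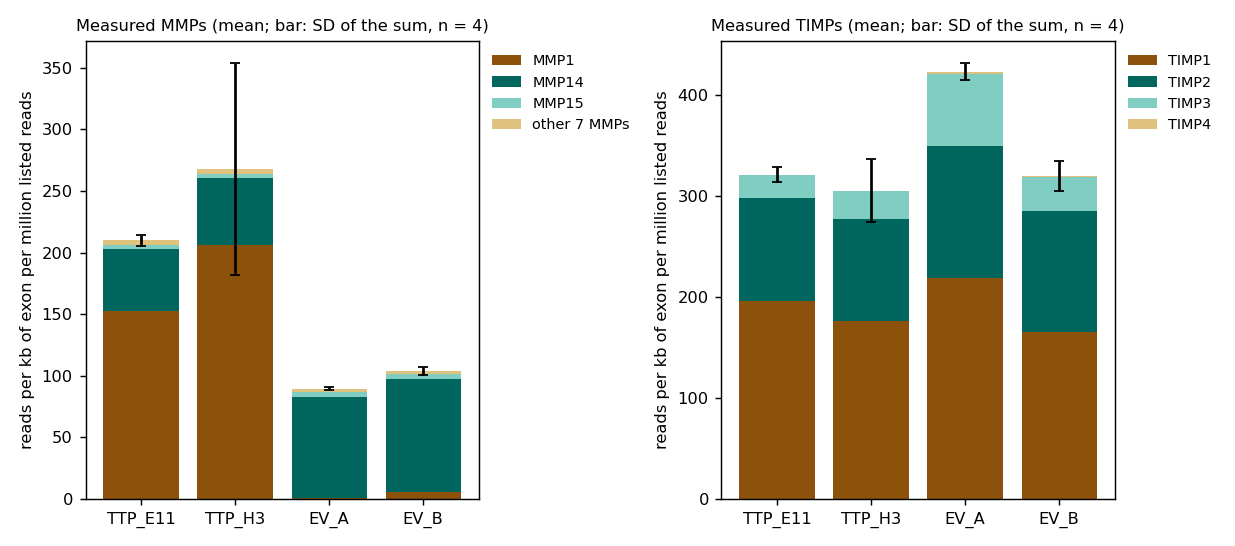
Mean level (y axis, RPKM of listed reads) of the measured MMPs on the left and TIMPs on the right, stacked by gene for each clone (x axis), with the SD of the sum over 4 libraries as the error bar. MMP1 made up 72.5% and 76.2% of the MMP level in TTP_E11 and TTP_H3 and 1.26% and 5.01% in EV_A and EV_B, where MMP14 led.

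The other MMPs, the TIMP TIMP4 and the membrane-anchored MMP inhibitor RECK were tested between the arms. Of 20 other MMPs, 7 were measured, and the other 13, MMP2 and MMP9 among them, were not listed. Of the 7, 2 rose, 0 fell and 5 did not pass the limma test at an adjusted p of 0.05, with 0 lower also at an unadjusted p under 0.05, in edgeR and in DESeq2. Their median log2 difference was 0.14 against 0.00 over all genes, of which 35.4% rose and 34.6% fell. MMP3, a stromelysin that can activate proMMP1, had 29.9 ± 4.10 normalized counts in TTP_E11 and 38.4 ± 3.28 in TTP_H3, against 5.52 ± 4.13 in EV_A and 17.9 ± 5.55 in EV_B (SD, n = 4 each). Its log2 difference of TTP from EV was 1.89 ± 0.376 (SE, limma adjusted p = 0.000298), and against EV_B alone it was 0.93 and did not pass (adjusted p = 0.0916). As with the MMP1 means, MMP3 was higher in EV_B than in EV_A (log2 difference 1.92, limma adjusted p = 0.00958), on 72 reads in EV_B and 23 in EV_A. MMP19, a secreted MMP, stood at 75.1 ± 6.78 in TTP_E11 and 64.9 ± 4.74 in TTP_H3, against 21.8 ± 2.46 in EV_A and 25.2 ± 4.98 in EV_B, with every TTP library above every EV library (log2 difference 1.54 ± 0.123, limma adjusted p = 7.13e-13). It shares 814 exon bases with TMEM198B on the other strand.

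The remaining 5 were low in all clones and did not pass with both EV clones as control. MMP16 and MMP24, both membrane-anchored, had log2 differences of -0.02 and 0.17. MMP17 and MMP25, which are held in the membrane by a lipid anchor, had -0.23 and 0.14, and MMP11, stromelysin-3, had -0.15. For MMP11 and MMP17 the control clone set the sign. MMP11 was lower in TTP clones against EV_A alone (log2 difference -0.79, limma adjusted p = 0.00738) and had 0.48 against EV_B alone (adjusted p = 0.0948). MMP17 was lower against EV_A alone (log2 difference -0.84, limma adjusted p = 0.0328) and had 0.38 against EV_B alone (adjusted p = 0.342). Both were lower in EV_B than in EV_A, by a log2 difference of -1.27 for MMP11 (limma adjusted p = 0.00125) and -1.22 for MMP17 (adjusted p = 0.0157). Without replicate 4 of EV_B, where MMP11 was at 10.3 against 35.2 to 40.0 in the other EV_B libraries, MMP11 was lower in TTP by a log2 difference of -0.37 (limma adjusted p = 0.00801). TIMP4 fell, to 24.5 ± 8.23 normalized counts in TTP_E11 and 19.3 ± 3.30 in TTP_H3, against 72.9 ± 13.8 in EV_A and 42.2 ± 7.81 in EV_B, with no overlap between the arms (log2 difference -1.33 ± 0.159, limma adjusted p = 6.46e-09). RECK rose by 0.22 on the log2 scale (limma adjusted p = 0.00203), at 298.2 ± 18.4 in TTP_E11 and 256.4 ± 17.7 in TTP_H3, against 289.1 ± 25.2 in EV_A and 196.7 ± 19.97 in EV_B. Its difference from EV_A alone was -0.06 and did not pass. When edgeR was run on the sum of each clone's reads, 2 sums against 2, it kept MMP19 (adjusted p = 0.00526) and TIMP4 (0.0272) and did not keep MMP3 (0.0692) or RECK (0.516).

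With TIMP4 and RECK included, the list of other proteins that bind or block metalloproteinases had 8 measured members, of which 1 rose, 4 fell and 3 did not pass. Its median log2 difference was -0.22, and of all genes 35.4% rose and 34.6% fell. THBS2, a matrix glycoprotein through which MMPs are cleared, fell most, at 46.3 ± 3.18 normalized counts in TTP_E11 and 13.4 ± 4.30 in TTP_H3, against 381.1 ± 17.0 in EV_A and 346.4 ± 53.2 in EV_B (log2 difference -3.82, limma adjusted p = 9.99e-24). TFPI2, a secreted inhibitor of serine proteases such as plasmin, and PCOLCE2, an enhancer of procollagen processing, fell by 0.21 and 0.37 on the log2 scale. The fall of PCOLCE2 did not pass against EV_A alone.

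Among the proteases and convertases that activate proenzymes, 2 of 11 rose, 4 fell and 5 did not pass (median -0.13). Of all genes, 35.4% rose and 34.6% fell. Between the controls, EV_B against EV_A, 0 of the 11 were higher and 5 lower, with a median log2 difference of -0.18. There 20.2% of all genes were higher and 16.6% lower. FURIN, the convertase that processes MMP14, fell, at 2916 ± 112 normalized counts in TTP_E11 and 2887 ± 225 in TTP_H3, against 4013 ± 99.1 in EV_A and 4117 ± 99.4 in EV_B (log2 difference -0.49, limma adjusted p = 7.10e-16). CTSL, a lysosomal cysteine protease, had a log2 difference of -0.37. The trypsinogen genes PRSS3 and PRSS2 rose by 2.21 and 1.32 at low levels of 3.75 to 28.9 normalized counts per clone. Reads of these near-identical copies may be split between them, and PRSS2 did not pass against EV_A alone.

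The list of substrates, receptors and partners of MMP1 had 15 measured members, of which 1 rose, 10 fell and 4 did not pass. Its median log2 difference was -0.24, and of all genes 35.4% rose and 34.6% fell. In EV_B against EV_A, 1 of the 15 was higher and 5 were lower, where 20.2% of all genes were higher and 16.6% lower. The median there was -0.21, so that the medians of both contrasts were close. ITGB1, the integrin subunit that pairs with the collagen receptor ITGA2, fell by 0.67 on the log2 scale, at 14851 ± 339 normalized counts in TTP_E11 and 13819 ± 1141 in TTP_H3, against 22390.0 ± 747 in EV_A and 23057 ± 142 in EV_B. CD44, a hyaluronan receptor that also serves as a marker of mesenchymal breast lines above, and SDC4, a heparan sulfate proteoglycan, fell by 0.55 and 0.89. IGFBP3, a growth factor binding protein that MMP1 can cut, fell by 0.51, and F2R, the thrombin receptor PAR1 that MMP1 can activate, fell by 0.27. COL1A2, a chain of type I collagen, had a log2 difference of -1.004 that did not pass against EV_B alone. LRP1, an endocytic receptor for MMP and inhibitor complexes, rose by 0.37. The summed mesenchymal markers were lower in TTP libraries as well, as given above, and their part in these counts was not tested.

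Genes of the ADAM and ADAMTS families, which include proteases that TIMP3 can block, moved in both directions. Of 10 ADAM genes 3 rose, 4 fell and 3 did not pass (median 0.00). ADAM10, a major sheddase, fell by 0.62 on the log2 scale and ADAM9 by 0.49, while ADAM11, a family member without protease activity, rose by 1.29. ADAM28 and ADAM12 had log2 differences of -0.81 and -0.42, neither of which passed against EV_B alone. Of 14 ADAMTS genes, from a list that also held ADAMTS-like genes, 6 rose, 5 fell and 3 did not pass (median 0.00). Beside both families, 35.4% of all genes rose and 34.6% fell. ADAMTS1, a proteoglycan-cutting member, stood at 51.8 ± 5.77 normalized counts in TTP_E11 and 9.04 ± 7.47 in TTP_H3, against 0.518 ± 0.614 in EV_A and 3.82 ± 1.60 in EV_B. TTP_H3 was below TTP_E11 there (log2 difference -2.65, limma adjusted p = 9.66e-05). ADAMTS7 and ADAMTS6 rose by 1.34 and 0.64, and ADAMTS14 and ADAMTS9 fell by 1.52 and 0.61.

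Transcription factors known to act at the MMP1 promoter were also divided. Of 30, 14 rose, 13 fell and 3 did not pass, with a median log2 difference of 0.10, where 35.4% of all genes rose and 34.6% fell. CEBPA rose at low level, with 22.5 ± 5.86 normalized counts in TTP_E11 and 22.4 ± 7.35 in TTP_H3, against 3.16 ± 2.83 in EV_A and 9.19 ± 6.23 in EV_B (log2 difference 2.03). MITF, a melanocyte lineage factor, rose by 1.27. HIF1A, the oxygen-regulated subunit, fell by 0.92, and ETS2 fell by 0.62. The AP-1 subunits and their ATF partners, which bind the best-studied element of this promoter, moved in both directions. FOSL1, the most abundant of them, rose by 0.10 (limma adjusted p = 0.00697), JUND by 0.25 (adjusted p = 0.0203) and ATF3 by 0.39 (adjusted p = 0.000103). FOSL2 fell by 0.37 (limma adjusted p = 1.17e-05), ATF2 by 0.30 (adjusted p = 4.42e-09) and JUN by 0.09 (adjusted p = 0.00648). FOS, FOSB and JUNB had log2 differences of 0.18, 0.30 and -0.09 and did not pass (limma adjusted p = 0.192, 0.129 and 0.151). No promoter sequence of MMP1 was used here.

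MMP1 lies in a cluster of 9 MMP genes that spans 435.2 kb on chromosome arm 11q, of which 2, MMP1 and MMP3, were measured. Their starts are 45.6 kb apart. From a list of genes around MMP1 on the same arm, 11 were measured, MMP3 included. Of these 7 rose, 1 fell and 3 did not pass (median 0.33). They were picked by name, and other genes of the arm were not looked at. They reached 2.30 Mb from MMP1 on the side of MMP3 and 0.883 Mb on the other. CASP4, CASP1 and CARD16, at 2.17 to 2.30 Mb, were among those that rose. Over the whole set of genes, 35.4% rose and 34.6% fell. On the side of MMP3, the nearest of these genes outside the cluster was DCUN1D5, 0.294 Mb away with a rise of 0.20. Next was DYNC2H1, a dynein heavy chain of cilia, 0.311 Mb away with a rise of 0.89. On the other side TMEM123, BIRC2 and BIRC3 lay within 0.481 Mb of MMP1 and had log2 differences of -0.02, 0.00 and 0.03, none of which passed. Also on that side, YAP1, a transcriptional coactivator 0.688 Mb away, fell by 0.18, and CEP126, 0.883 Mb away, rose by 0.33 (limma adjusted p = 0.00492). CASP4, an inflammatory caspase 2.17 Mb away, rose by 1.52. CASP1 and CARD16, whose similar sequences make their read assignment uncertain, had clone means of 33.5 to 64.9 normalized counts in TTP clones, against 0.217 to 1.56 in EV clones.

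**Figure D4:**
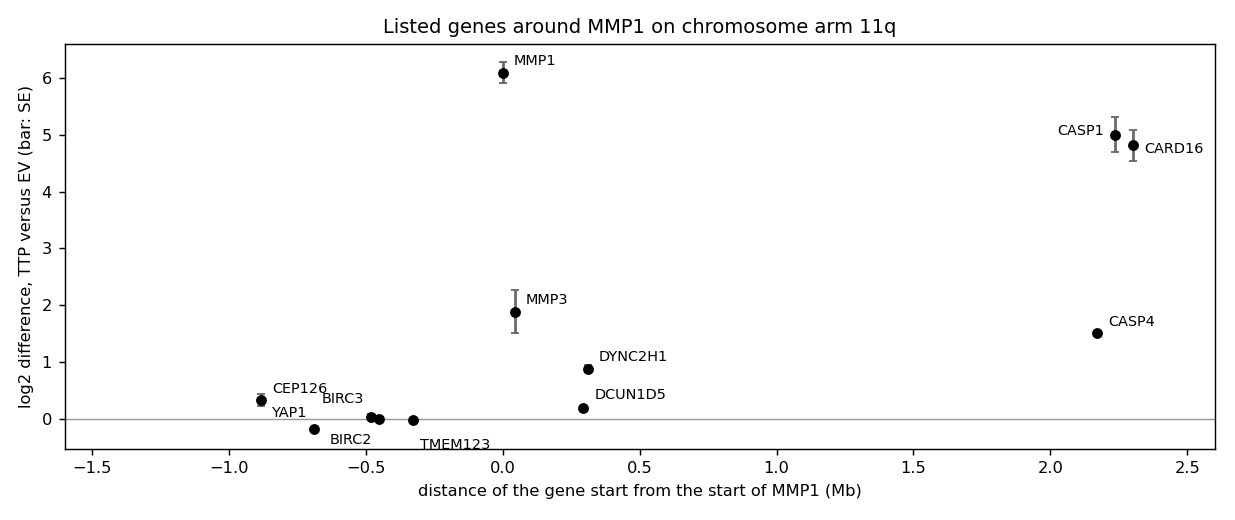
Log2 difference of TTP from EV (y axis, bars ± SE) of MMP1 and the measured genes of the list around it. The x axis gives the distance of the gene start from that of MMP1 in Mb. MMP1 stood at 6.09 and MMP3 beside it at 1.89, while TMEM123, BIRC2 and BIRC3 stood between -0.02 and 0.03.

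Within clones, replicate 3 of TTP_H3 and replicate 4 of EV_B departed from the other libraries of their clone in like directions at the genes described here. Over the 11878 genes with a mean of at least 50, the correlation of their deviations from the clone mean was 0.13. MMP1 was at 11555 in replicate 3 of TTP_H3 against a mean of 5993 in the other 3, a ratio of 1.93. In replicate 4 of EV_B it was at 311.2 against 164.5, a ratio of 1.89. MMP14 was above the other 3 libraries in both, with ratios of 1.32 in TTP_H3 and 1.03 in EV_B. All 3 TIMPs were below the other 3 libraries in both. TIMP1 had a ratio of 0.803 in TTP_H3 and 0.949 in EV_B, TIMP2 0.774 in TTP_H3 and 0.888 in EV_B, and TIMP3 0.931 in TTP_H3 and 0.791 in EV_B. MMP15 was below the other EV_B libraries (ratio 0.851) and inside the range of the other TTP_H3 libraries. ZFP36 in these libraries was at 13337 against a mean of 14708 in the other TTP_H3 libraries and at 218.2 against 223.4 in the other EV_B libraries. Without both libraries the log2 differences of TTP from EV were 6.09 for MMP1, -0.86 for MMP14, -0.40 for MMP15, -0.09 for TIMP1, -0.36 for TIMP2 and -1.07 for TIMP3. Without replicate 3 the MMP1 mean of TTP_H3 was 5993, against 5450 in TTP_E11, and the log2 difference between these clones was 0.14 in place of 0.37. The other 3 libraries of TTP_H3, at 5928 to 6076, still lay above the libraries of TTP_E11, at 5301 to 5746.

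**Figure D5:**
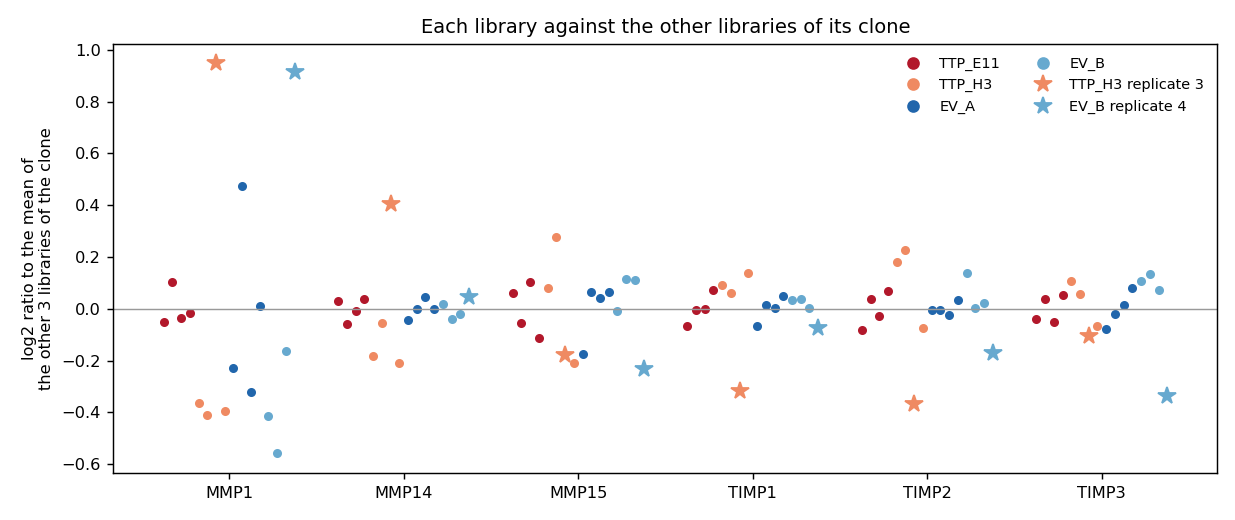
Log2 ratio of each library to the mean of the other 3 libraries of its clone (y axis) for the 6 genes (x axis), with stars for replicate 3 of TTP_H3 and replicate 4 of EV_B. The stars stand at 0.95 and 0.92 for MMP1 and below 0 for TIMP1, TIMP2 and TIMP3.

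Genes whose level over the 16 libraries was most like that of MMP1 were sought among the 11878 genes with a mean of at least 50 normalized counts, by Pearson's r of log2(value + 1). Among the closest were TAGLN, an actin-binding protein of smooth muscle (r = 0.994), the vitamin D hydroxylase CYP24A1 (0.992), CTNNBL1 (0.992) and the monoamine oxidase MAOA (0.992). These correlations rest on 4 clones and describe the order of clone means. TAGLN stood at 629.8 ± 38.1 in TTP_E11 and 587.7 ± 124 in TTP_H3, against 82.0 ± 5.95 in EV_A and 149.3 ± 17.4 in EV_B, with a higher mean in EV_B than in EV_A. The closest to MMP14 were ARHGEF2 (0.995) and TUBA1C (0.992), a microtubule-bound exchange factor and a tubulin. MMP15 was closest to SORT1 and KAZN (0.949 each), TIMP1 to CPE (0.985), TIMP2 to EHD2 (0.978) and APLP2 (0.977), and TIMP3 to ATP1B1 (0.992) and HIP1R (0.988).

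With the clone means removed, the deviations most like those of MMP1 were those of GSR, the glutathione reductase (r = 0.925 over 16 libraries), HNRNPH3 (0.925), G0S2 (0.920), CDCA5 (0.907) and OSBPL6 (0.899). Without replicate 3 of TTP_H3 these values were 0.900, 0.877, 0.860, 0.837 and 0.830. Replicate 4 of EV_B, where MMP1 was 1.89 times the mean of the other libraries of its clone, was kept in all these values. Its part in them was not tested. G0S2, an inhibitor of triglyceride lipolysis, was at 1206 in replicate 3 of TTP_H3, where the clone mean was 823.8 ± 256, and reached 1014 in EV_B, where the mean was 744.5 ± 184.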

How the data were processed

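The members, gene lists and tests were chosen with earlier results of these data known. The authors deposited 1 table of normalized signal, called normalized counts. Judged by the values, each entry is a read number scaled by a library's own size factor: within 0.001, 100% of entries were whole multiples of 1 read in all 16 libraries, though in replicates 1 and 3 of TTP_H3, where 1 read was worth 1.009 and 0.998, the match is a weaker check. A log2 fold change with its p-value and adjusted p-value for TTP against EV is in the deposited table too. Tools listed in the submitters' processing notes are STAR 2.5.2b, featureCounts and Subread 1.5.2, Trimmomatic 0.36 and DESeq2, with GRCh38 as build. The annotation and strand setting are not given in the sources used here. Libraries were grouped by library name.

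The test was limma 3.58.1 (R 4.3.3, robust trend) on log2(value + 1), which can understate or overstate differences of genes with few reads. MMP3, for example, had 1.89 in this fit and 1.55 in the authors' deposited table. All 16 libraries entered as 4 clone groups, with Benjamini-Hochberg adjustment over 14857 genes at 0.05, and the method was tested on simulated data. Alternatives were a pseudocount of 0.1, a minimum mean of 50, TMM scaling, a replicate block, count models on the recovered reads (DESeq2 1.42.0 and edgeR 4.0.16), each EV clone alone, and each library left out. Added after seeing the data were leaving out both libraries that stand apart and summing reads per clone.

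Named genes were the 6 genes, all other measured MMPs, at most 5 called genes of each list with the largest differences, and the genes of most similar pattern. F2R, LRP1, FOSL1, FOSL2, JUN, JUNB, JUND, FOS, FOSB, ATF2, ATF3, DCUN1D5, TMEM123, BIRC2, BIRC3, YAP1 and CEP126 were added after their values were seen. Some genes that the rule names are not reported. Positions and 3′ UTRs come from GENCODE 29 on GRCh38, which held 14820 of the listed genes and may differ from the authors' annotation.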

Additional observations from a re-analysis of the deposited data

Results flagged for a closer look

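Within the 4 libraries of each clone, 5 single values lay beyond Dixon's 95% limit, out of 60 groups of 4 libraries looked at for 15 genes. For the 6 genes described here it was 3 of 24 groups. Chance alone gives about 1 such group in 20, and the high MMP1 value was known when the genes were chosen, so that the values are a description. MMP1 was high in replicate 3 of TTP_H3, at 11555 normalized counts against 5928 to 6076 in the other 3 libraries of the clone. TIMP3 was low in replicate 4 of EV_B, at 2459.9 against 3059 to 3156. MMP15 was low in replicate 1 of EV_A, at 334.1 against 374.1 to 379.0. MMP3 was low in replicate 1 of TTP_E11, at 23.8 against 31.3 to 32.4, on 19 reads. MMP11 was low in replicate 4 of EV_B, at 10.3 against 35.2 to 40.0, on 11 reads.

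Between the TTP clones, the level of TIMP3 differed. The log2 difference of TTP_H3 from TTP_E11 was 0.34 (limma adjusted p = 0.00109), with all 4 libraries of TTP_H3 above all 4 of TTP_E11.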

How the results depend on the processing

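Of 2005 recomputed values, 1918 were counted as kept, and 24 were counted as changed in sign. Tested values were kept if their direction and side of the threshold held, and counts of genes if they stayed within 1.5 times. Values given without a test were kept if they moved by less than the SD of the gene within clones. With EV_A alone and with EV_B alone as control, the log2 differences of TTP from EV were 7.18 and 5.004 for MMP1, -0.30 and 0.071 for TIMP1 (whose sign turned with EV_B), and -1.58 and -0.50 for TIMP3. With EV_A alone, RECK turned to -0.063 and MMP25 to -0.12, and with EV_B alone MMP11 turned to 0.48, MMP16 to 0.071 and MMP17 to 0.38. Without both libraries that stand apart, MMP16 turned to 0.030, and in TTP_H3 against TTP_E11 MMP14 turned to -0.011 and TIMP2 to 0.055. With 1 library left out, values near 0 that passed in no such fit changed sign: in TTP_H3 against TTP_E11, MMP14 ran from -0.011 to 0.14, MMP15 from -0.067 to 0.054 and TIMP2 from -0.095 to 0.055, in EV_B against EV_A MMP15 ran from -0.023 to 0.078, and in TTP against EV MMP16 ran from -0.058 to 0.044 and MMP25 from -0.013 to 0.26. With reads summed per clone, MMP1 was at 5.71. The step of MMP14 between EV_B and EV_A stayed between 0.20 and 0.22 with each EV library left out and missed the threshold in all 8 of these fits. For TIMP1 in TTP_H3 against TTP_E11, edgeR gave -0.15 (adjusted p = 0.0462), DESeq2 -0.15 (adjusted p = 0.0403), single libraries left out -0.194 to -0.079 (2 of these fits passed, without replicates 1 and 4 of TTP_H3), and both libraries that stand apart left out -0.079 (adjusted p = 0.0477). The cause was not tested.

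The genes called between TTP_H3 and TTP_E11 numbered 1735, with 1118 (without replicate 2 of TTP_E11) to 2261 (without replicate 3 of TTP_H3) with 1 library left out and 2851 without both libraries that stand apart. Summing reads per clone leaves 2 clones against 2 and called 4280 genes between TTP and EV in place of 10405. Of all 14857 genes, 2156 were then higher and 2124 lower. Of 7 other MMPs this left 1 higher, and of 8 inhibitors 0 higher and 2 lower. Of 10 ADAM genes 2 were lower, and of 14 ADAMTS genes 3 were higher and 2 lower. Of 11 activators 1 was higher, and of 15 MMP1 partners 0 were higher and 6 lower. Of 30 promoter factors 6 were higher and 5 lower, and of 11 neighbours 4 were higher and 0 lower. A minimum mean of 50 takes genes below it out before the test, MMP3 among them. Of the 11878 genes kept, 4442 were higher and 4666 lower. It left 0 other MMPs higher, 2 ADAM genes lower, 0 activators higher and 4 neighbours higher. Other MMPs lower numbered 0 to 1 with 1 library left out (MMP11, without replicate 4 of EV_B) and 1 without both libraries. MMP1 partners higher numbered 2 in edgeR and 1 to 2 with 1 library left out. For the 41 named list genes, 1016 of 1048 alternatives kept direction and call.

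The replicate numbers are not stated to pair cultures, and none of 24 same-numbered pairs of libraries had a correlation of deviations over 0.1 (-0.0883 to 0.0962), with 1 of 16 libraries correlating best with its own number. With the replicate number as a block, 10354 genes were called between TTP and EV, 1688 between TTP_H3 and TTP_E11 and 5420 between EV_B and EV_A. Depth limits the MMPs and ADAMTS genes with few reads, and MMP1 in EV_A rests on 178 reads.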
